A study of Mus musculus with 4 samples.

Results

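Of 34 genes that fold proteins in the endoplasmic reticulum (ER), sense unfolded protein there or send it for disposal, 33 were measured in hearts of mouse embryos. Herpud1, Atf6 and Ern1 were higher with Nkx2.5-Cre in floxed Adar1 embryos, Dnajc10 and Pdia6 were lower, and the other 28 did not pass the test. The genes were chosen by their symbols in the deposited table of 14936 genes, and Derl3 was not analysed here. All 33 passed a filter of at least 1 CPM (read counts scaled to library size) in 2 libraries, as did 14869 genes of the table.

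The hearts came from embryos on a C57BL/6 background at E18.5, late in gestation, and all 4 embryos carried floxed Adar1 on both chromosomes. Mutant embryos 51 and 54 also carried 1 Nkx2.5-Cre allele, and control embryos 47 and 50 carried none. Adar1 encodes an enzyme that turns adenosine into inosine in RNA, and Nkx2.5 is a gene of the early heart, whose promoter drives the recombinase. Since the Cre allele was present in the mutants alone, effects of Cre and of targeting Adar1 cannot be told apart. Whole hearts also hold cells that the recombinase does not reach. The genotype labels of the Cre carriers name wildtype and KO together, so the grouping follows the sample titles. Each group has 2 embryos. P-values set the difference between groups against the spread within groups, which the test moderates with a trend over all genes.

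Secreted and membrane proteins enter the ER through the Sec61 translocon and are folded by chaperones of the lumen, by the lectins calnexin and calreticulin, and by disulfide isomerases. Misfolded proteins are trimmed, drawn back through the membrane and ubiquitinated for the proteasome, a route called ER-associated degradation. When unfolded protein builds up, the sensors IRE1 (the product of Ern1), ATF6 and PERK change gene expression: IRE1 splices the Xbp1 messenger RNA, ATF6 is cleaved into a transcription factor, and PERK phosphorylates eIF2alpha, which favours translation of ATF4. In heart muscle the ER is continuous with the sarcoplasmic reticulum, which stores the calcium for contraction, and calreticulin, a calcium-binding chaperone, is abundant in the embryonic heart. Values per gene do not separate spliced from unspliced Xbp1, nor cleaved from whole ATF6.

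The promoter sequences below set Herpud1, the member with the largest rise, beside chaperone genes that did not rise, since promoters of both kinds are known to carry elements of the stress response. An ER stress response element (ERSE), known as a binding site of ATF6 and XBP1 with the factor NF-Y, was searched as CCAAT, 9 bases, CCACG. A second form, ERSE-II, was searched as ATTGG, 1 base, CCACG. An element bound by ATF4 was searched as TGATGCAA or TGATGAAA, and a site bound by XBP1 and ATF6 (UPRE) as TGACGTGG. Both strands were searched in windows of 250 bases before to 50 bases after each gene's start, from RefSeq on GRCm38.p6. Both ERSE forms contain the shorter word CCACG. First stand the 250 bases before the start of Herpud1, on the plus strand at chr8:94386179-94386428, with an ATF4 element and then an ERSE-II in capitals. The 250 bases before the start of Hspa5, the gene of the chaperone BiP, follow, on the plus strand at chr2:34771840-34772089, with an ERSE in capitals.
Herpud1: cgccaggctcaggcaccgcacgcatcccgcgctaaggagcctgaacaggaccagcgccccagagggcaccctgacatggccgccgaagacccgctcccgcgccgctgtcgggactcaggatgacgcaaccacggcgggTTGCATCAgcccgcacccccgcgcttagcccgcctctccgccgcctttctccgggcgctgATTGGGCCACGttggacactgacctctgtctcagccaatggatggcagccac
Hspa5: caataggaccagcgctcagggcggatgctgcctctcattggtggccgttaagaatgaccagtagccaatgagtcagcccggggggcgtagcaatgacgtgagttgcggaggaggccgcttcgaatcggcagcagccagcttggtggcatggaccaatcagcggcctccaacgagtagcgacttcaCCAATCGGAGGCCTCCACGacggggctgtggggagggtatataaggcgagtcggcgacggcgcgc

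An ERSE lay in the windows of 9 of the 28 members that had one, namely Hspa5, Hsp90b1, Calr, Canx, Pdia6, Dnajc3, Creld2, Syvn1 and Derl3. Of all 27025 genes with a window 37 held it, or 0.137%. Many of these chaperone promoters served to define the element in the first place, so its share among them is background and no finding of these data. An ERSE-II lay in 2 members, Herpud1 and Dnajb11, and in 12 of all genes with a window, or 0.0444%. No window is held here for Atf6, Derl1, Hyou1, Manf, Sec11c and Sec61a1. The stretches below give 15 bases on each side of the element, which is in capitals and is read 5′ to 3′ along the gene's own strand. Hsp90b1 has 2 matches, and its stretch spans both. The stretch of Dnajb11 runs past the start of the gene and ends at position 24 after it, 7 bases after the element.
Calr (chr8:84847060-84847108, minus strand): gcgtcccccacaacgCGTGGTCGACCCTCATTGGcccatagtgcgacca
Derl3 (chr10:75893227-75893275, plus strand): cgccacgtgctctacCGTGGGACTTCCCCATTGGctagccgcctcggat
Hsp90b1 (chr10:86705518-86705671, minus strand): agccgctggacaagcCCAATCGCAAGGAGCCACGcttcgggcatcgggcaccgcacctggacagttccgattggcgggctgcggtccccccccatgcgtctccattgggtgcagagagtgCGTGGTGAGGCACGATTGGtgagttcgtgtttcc
Canx (chr11:50325785-50325833, minus strand): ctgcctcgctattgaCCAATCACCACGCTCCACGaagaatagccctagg
Pdia6 (chr12:17266476-17266524, plus strand): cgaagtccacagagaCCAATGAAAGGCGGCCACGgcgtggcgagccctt
Dnajc3 (chr14:118937812-118937860, plus strand): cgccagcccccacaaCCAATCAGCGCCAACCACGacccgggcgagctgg
Creld2 (chr15:88819505-88819553, plus strand): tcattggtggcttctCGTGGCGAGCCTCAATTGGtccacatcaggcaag
Dnajb11 (chr16:22857837-22857869, plus strand): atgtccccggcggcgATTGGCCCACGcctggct
Syvn1 (chr19:6046517-6046565, plus strand): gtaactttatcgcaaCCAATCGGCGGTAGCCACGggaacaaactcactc

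The element reads in the forward direction in Canx, Pdia6, Dnajc3, Syvn1, Dnajb11 and the first match of Hsp90b1, and on the opposite strand in Calr, Derl3, Creld2 and the second match of Hsp90b1. Its first base lay between 162 and 44 bases before the start in the single ERSE matches listed here, at -162 in Calr and -44 in Syvn1. In Dnajb11 the ERSE-II began at position 7 after the start. The UPRE word was in none of the 28 members and in 193 of all 27025 genes with a window, or 0.714%. The short word CCACG was in 23 of the 28, or 82.1%, and in 9589 of all 27025 genes with a window, or 35.5%. In the other gene lists read below it was common too, from 54.5% of further degradation genes to 71.8% of further folding genes. A match is a run of letters and is not a measured binding site, and a window without one says only that these letters are not in it.

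**Figure D1:**
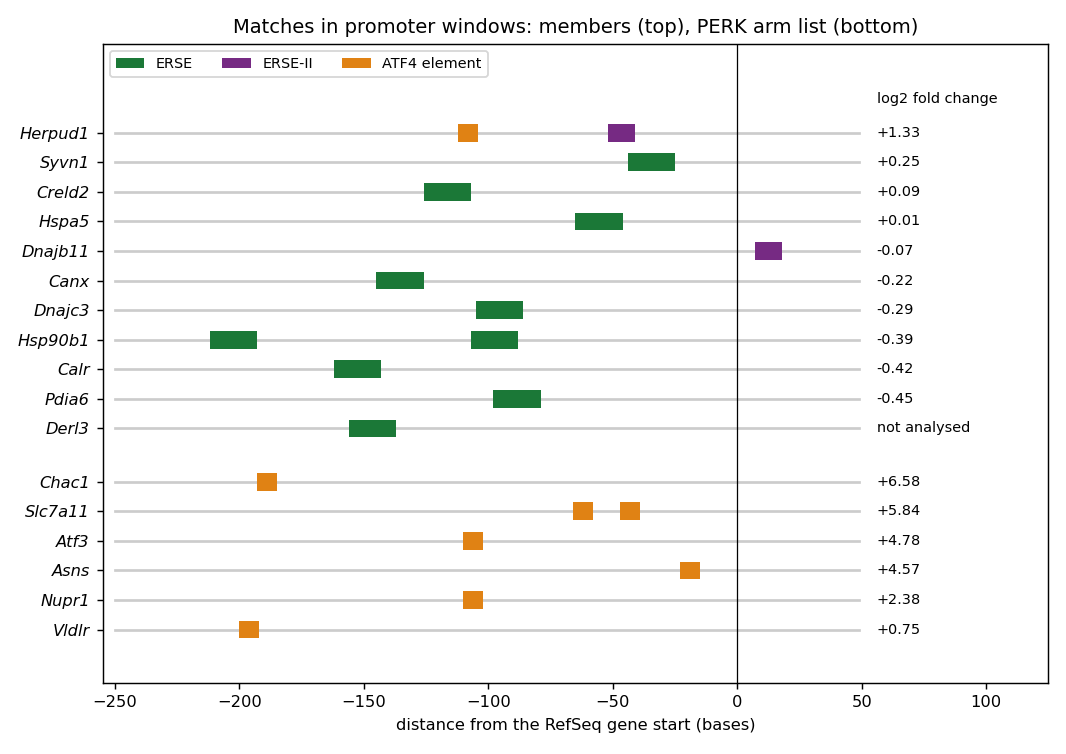
Matches to ERSE, ERSE-II and the ATF4 element (boxes) in the promoter windows, by distance from the RefSeq gene start in bases. Members are at the top and the list of PERK and the ATF4 and CHOP targets at the bottom. Each gene's log2 fold change is at the right. Genes without a match to these elements are not drawn, nor are matches to UPRE or CCACG. Herpud1 alone shows both an ATF4 element and an ERSE form. Its log2 fold change of 1.33 is the largest of the members drawn, and it was singled out for that rise. Whether elements and fold changes are linked was not tested.

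The libraries held 7457103 to 8998872 reads in the genes of the table, so 1 read was worth 0.109 to 0.138 CPM. Adar, the targeted gene (chromosome 3, 89715022 to 89753446), stood at 204 ± 13.03 CPM in the libraries labelled mutant and 33.0 ± 3.85 CPM in those labelled control (SD, n = 2 each). It was higher in the libraries labelled mutant, by a log2 fold change of 2.60 (SE 0.13, limma adjusted p = 2.41e-05). Which exons are floxed is not given, and gene-level values cannot show their loss. All 8 cardiomyocyte markers were present, with a summed level of 15508 and 22845 CPM in mutant hearts 51 and 54 and 36248 and 27858 CPM in control hearts 47 and 50. Of the 8 only 1, Myl7, fell past the test's threshold, against 14.2% of all genes tested. The groups overlapped for Myh7 and Actn2. In whole tissue, fewer cells of a type and less RNA per cell cannot be told apart.

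Across all genes, 2643 rose and 2107 fell at a limma adjusted p below 0.05, which is 17.8% and 14.2% of those tested. Among the 33 members 3 rose and 2 fell, so 5 of 33 passed in either direction, against 31.9% of all genes. The balance depends on the scaling: 2253 genes were higher and 2963 lower with upper-quartile scaling, where 3 members were higher and 6 lower. With quantile normalization the counts were 2188 higher and 2738 lower, with 3 and 5 among the members. Without control 47 the counts over all genes were 534 higher and 37 lower, and without control 50 they were 593 and 76. The members' median log2 fold change was -0.19, and that of all genes -0.01. Both mutants lay above both controls in 7 members and below both in 15, against 36.0% and 36.3% of all genes, and the groups overlapped in 11. The 5 members with an FDR under 0.05 in the authors' deposited table are the same 5, from 0.000365 for Herpud1 to 0.0392 for Pdia6. Of those that rose, Herpud1 belongs to degradation and Atf6 and Ern1 to the sensors. Of those that fell, Dnajc10 is a co-chaperone of the lumen and Pdia6 a disulfide isomerase.

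**Figure D2:**
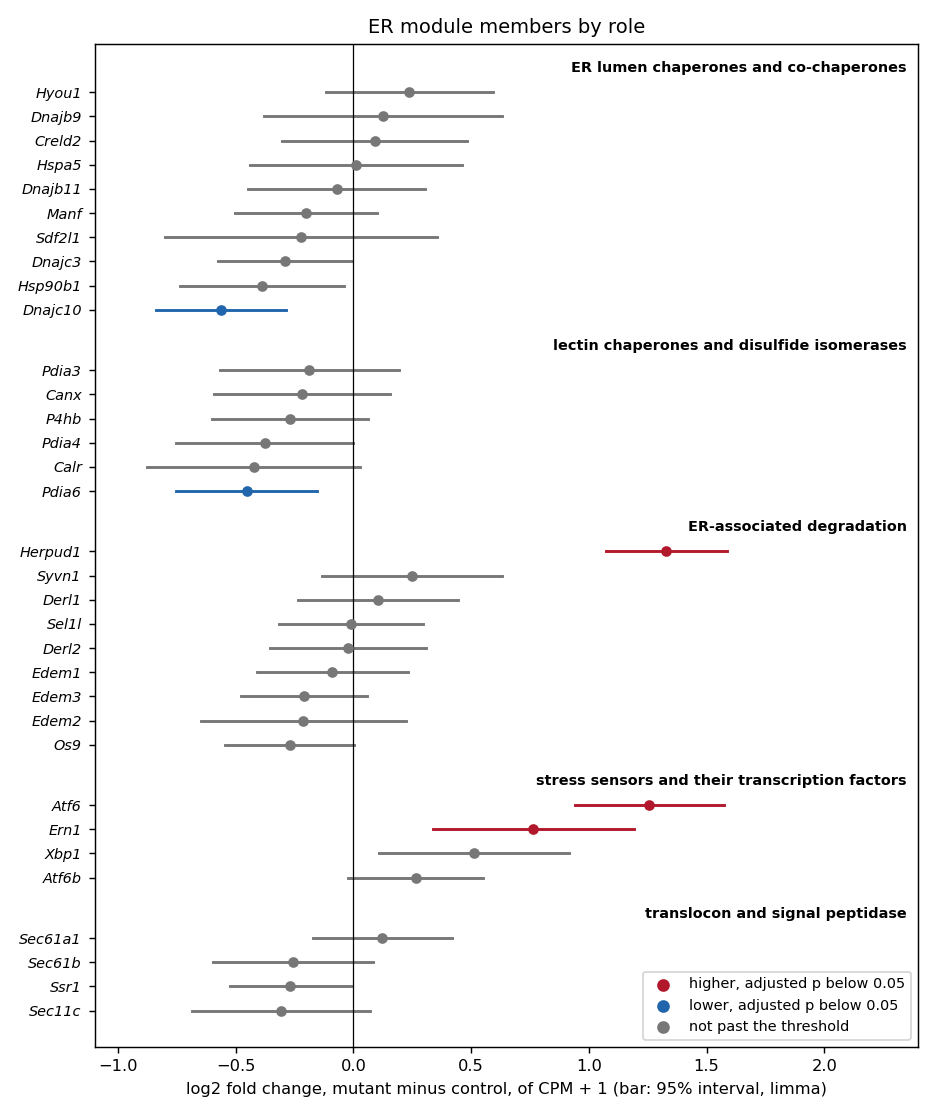
Log2 fold change of each measured member (points), as log2(CPM + 1) in mutants minus that in controls, with its 95% interval from limma (bars), grouped by role. Herpud1, Atf6 and Ern1 lie above 0, Dnajc10 and Pdia6 below it, and the grey members did not pass an adjusted p of 0.05.

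The sensors and their transcription factors stood higher in both mutants in 4 of 4 members, and 2 of these passed the test. Of all genes tested, 36.0% had both mutants above both controls and 17.8% rose. Atf6, which encodes the sensor cleaved in the Golgi (ENSMUSG00000026663, chromosome 1, 170704674 to 170867771), stood at 189.9 and 159.6 CPM in mutant hearts 51 and 54, against 68.4 and 76.3 CPM in control hearts 47 and 50. Both mutants lay far above both controls. It rose by 1.26 on the log2(CPM + 1) scale (95% interval 0.94 to 1.57, SE 0.13, limma adjusted p = 0.000984). Without control 47 its adjusted p was 0.0516, and the log2 fold change lay between 1.13 and 1.38 with each library left out in turn.

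Ern1, which encodes the kinase and RNase IRE1alpha (ENSMUSG00000020715, chromosome 11, 106394650 to 106487852), stood at 33.1 and 26.1 CPM in mutant hearts 51 and 54, against 15.4 and 18.53 CPM in control hearts 47 and 50. The groups did not overlap, and mutant 51 was the higher of the mutants. Ern1 rose by 0.76 (95% interval 0.34 to 1.19, SE 0.18, limma adjusted p = 0.0193). The call was lost without control 47 (adjusted p = 0.170), without control 50 (adjusted p = 0.101) and without mutant 51 (adjusted p = 0.0667).

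Xbp1, whose messenger RNA is the substrate of IRE1, stood at 141 and 99.8 CPM in mutant hearts 51 and 54, against 84.4 and 81.7 CPM in control hearts 47 and 50. The groups did not overlap, but mutant 51 stood apart from mutant 54 by more than mutant 54 did from the controls. Its log2 fold change of 0.51 did not pass the test (95% interval 0.11 to 0.91, limma adjusted p = 0.0580). Without mutant 54 it was 0.76 and without mutant 51 it was 0.26, each with only the other mutant in its group. Atf6b, the gene of a related ER membrane factor, stood at 45.8 and 48.2 CPM in mutant hearts 51 and 54, against 38.5 and 39.4 CPM in control hearts 47 and 50. The log2 fold change of Atf6b was 0.26 (95% interval -0.02 to 0.55, adjusted p = 0.133). The sensor with its own list, Eif2ak3, which encodes PERK, had 11.97 and 14.4 CPM in mutant hearts 51 and 54 and 16.4 and 18.3 CPM in control hearts 47 and 50. Both mutants lay below both controls for Eif2ak3, the reverse of the other sensors, and its log2 fold change of -0.38 did not pass (95% interval -0.80 to 0.05, limma adjusted p = 0.145).

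**Figure D3:**
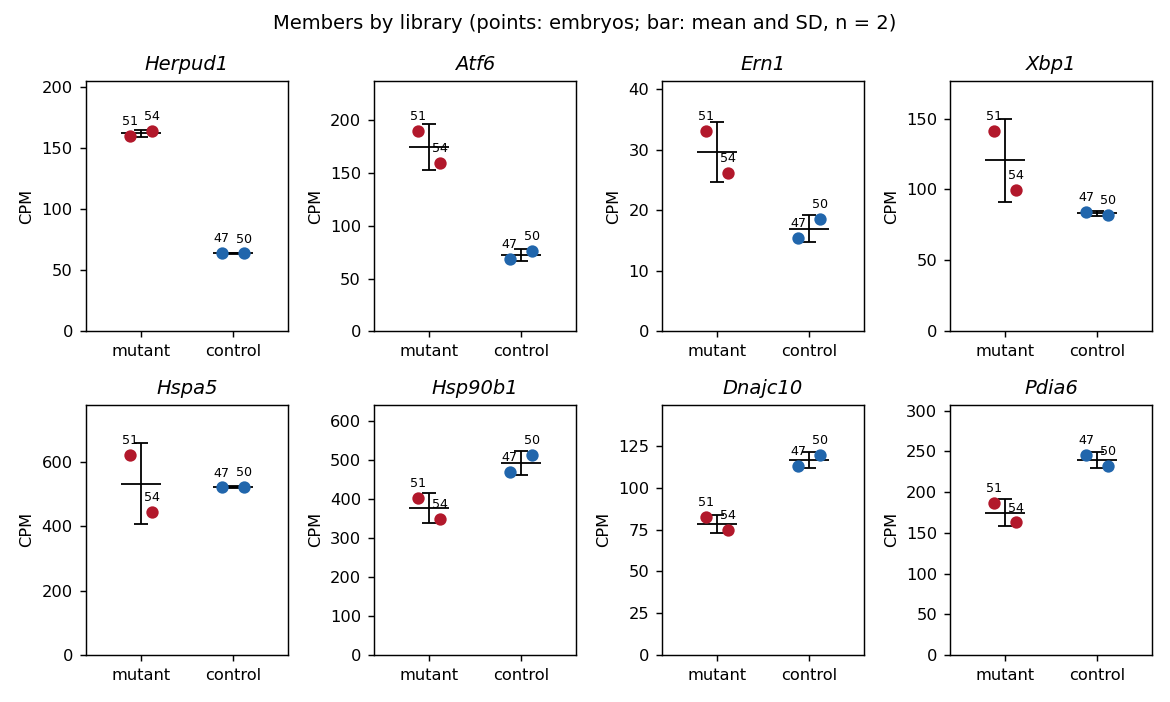
CPM of 8 members in each library (points, with embryo numbers) with the group mean and SD (bars, n = 2), mutants at the left and controls at the right of each panel, whose axis starts at 0. Herpud1 stands at 159.8 and 163.7 CPM in mutants 51 and 54 and near 64 CPM in controls, while for Hspa5 the controls lie between the mutants.

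In ER-associated degradation 1 of 9 measured members rose and none fell, against 17.8% and 14.2% of all genes tested. The member that rose, Herpud1, encodes a membrane protein that helps assemble the HRD1 ubiquitin ligase complex (ENSMUSG00000031770, chromosome 8, 94386438 to 94395377). It stood at 159.8 and 163.7 CPM in mutant hearts 51 and 54, against 63.9 and 63.6 CPM in control hearts 47 and 50. The members of each group were close to each other and the groups far apart. The log2 fold change was 1.33 (95% interval 1.07 to 1.59, SE 0.11, limma adjusted p = 0.000274), the largest of the 33. It was past the threshold under each of 14 alternative settings, with an adjusted p between 1.92e-11 and 0.0252.

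The rest of that pathway did not pass the test. Syvn1, the gene of the HRD1 ligase itself, stood at 30.3 and 37.5 CPM in mutant hearts 51 and 54 and at 26.2 and 30.4 CPM in control hearts 47 and 50, with a log2 fold change of 0.25 (95% interval -0.14 to 0.63). Sel1l, the gene of HRD1's partner in the membrane, had a log2 fold change of -0.01 (95% interval -0.32 to 0.30) and overlapping groups. Derl1 and Derl2, which encode derlins that help move substrates back across the membrane, had log2 fold changes of 0.10 and -0.02. Their groups overlapped as well. The mannose-trimming proteins of Edem1, Edem2 and Edem3 mark glycoproteins for degradation, and these genes had log2 fold changes of -0.09, -0.21 and -0.21. Os9, which encodes a lectin that reads the trimmed sugars, had -0.27 (adjusted p = 0.114), with 52.9 and 57.3 CPM in mutant hearts 51 and 54, against 65.9 and 67.5 CPM in control hearts 47 and 50. Edem1, Edem3 and Os9 were lower in both mutants than in both controls, and none of the 3 passed. Of all genes tested, 36.3% were lower in both mutants than in both controls.

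The 10 chaperones and co-chaperones of the ER lumen included 1 that fell and none that rose, against 14.2% and 17.8% of all genes tested. Dnajc10 encodes ERdj5, a J-domain reductase that breaks disulfides in proteins bound for degradation (ENSMUSG00000027006, chromosome 2, 80315466 to 80354043). It stood at 82.5 and 74.8 CPM in mutant hearts 51 and 54, against 113 and 119.9 CPM in control hearts 47 and 50. Both mutants were below both controls, and Dnajc10 fell by 0.56 (95% interval -0.84 to -0.29, SE 0.12, limma adjusted p = 0.0125). Without control 47 its adjusted p was 0.118, and without control 50 it was 0.136.

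Hspa5 encodes BiP, the Hsp70 chaperone that also binds the luminal domains of the sensors. It stood at 622 and 444 CPM in mutant hearts 51 and 54, against 521 and 523 CPM in control hearts 47 and 50. The controls agreed closely, while mutant 51 lay above both of them and mutant 54 below both. The log2 fold change was 0.01 with a 95% interval of -0.44 to 0.46 (limma adjusted p = 0.974), so the data leave room for a change of that size in either direction. Hsp90b1 encodes GRP94, the Hsp90 of the ER, and stood at 404 and 349 CPM in mutant hearts 51 and 54, against 470.5 and 514 CPM in control hearts 47 and 50. Its groups did not overlap, and its log2 fold change of -0.39 did not pass (95% interval -0.74 to -0.04, adjusted p = 0.0830).

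The other co-chaperones did not pass the test either. Hyou1, which encodes the nucleotide exchange factor GRP170, was above both controls in both mutants, at 78.9 and 60.7 CPM in mutant hearts 51 and 54, against 60.1 and 57.0 CPM in control hearts 47 and 50 (log2 fold change 0.24, limma adjusted p = 0.256). Dnajb9, Dnajb11 and Dnajc3 encode the J-domain partners ERdj4, ERdj3 and P58IPK of BiP, and had log2 fold changes of 0.12, -0.07 and -0.29. Of these, only Dnajc3 had groups that did not overlap, with 55.7 and 52.7 CPM in mutant hearts 51 and 54, against 63.3 and 70.0 CPM in control hearts 47 and 50 (adjusted p = 0.103). Manf, which encodes a secreted stress-inducible protein of the ER, had a log2 fold change of -0.20. Sdf2l1, whose product works with ERdj3, had -0.22, and Creld2, which encodes an ER-resident protein with disulfide isomerase activity, had 0.09. Sdf2l1 was among the members with few reads, at 8.71 and 9.14 CPM in mutant hearts 51 and 54, against 13.2 and 8.44 CPM in control hearts 47 and 50.

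The lectin chaperones and disulfide isomerases all had log2 fold changes below 0, and 1 of 6 passed, against 31.9% of all genes tested. Pdia6 encodes the isomerase P5, a partner of BiP (ENSMUSG00000020571, chromosome 12, 17266545 to 17284770). It stood at 186 and 163 CPM in mutant hearts 51 and 54, against 246 and 232 CPM in control hearts 47 and 50. The groups did not overlap, and Pdia6 fell by 0.45 (95% interval -0.75 to -0.16, SE 0.13, limma adjusted p = 0.0330). Without control 47 its adjusted p was 0.229, and without control 50 it was 0.171. Its exons overlap those of Atp6v1c2 on the opposite strand, and with the strand setting of the counting not given, reads of the pair cannot be told apart. Atp6v1c2 is not among the genes of the deposited table.

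Calr, the gene of calreticulin, stood at 375 and 269.8 CPM in mutant hearts 51 and 54, against 468 and 389.8 CPM in control hearts 47 and 50, with a log2 fold change of -0.42 (95% interval -0.88 to 0.03, limma adjusted p = 0.129). Canx, the gene of its membrane-bound relative calnexin, stood at 461 and 372 CPM in mutant hearts 51 and 54, against 492 and 472 CPM in control hearts 47 and 50. Both genes were lower in both mutants, with the deeper value in mutant 54. P4hb, the founding disulfide isomerase and also a subunit of the collagen prolyl hydroxylase, had a log2 fold change of -0.27. Pdia3, whose product works with calnexin and calreticulin, had -0.19, and Pdia4, which encodes the isomerase ERp72, had -0.38 (adjusted p = 0.109). The upper ends of the 95% intervals of these 6 genes reached no higher than 0.19.

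Of the translocon and signal peptidase genes none of 4 passed, against 31.9% of all genes tested. Sec61a1, which encodes the channel, stood at 185 and 158.6 CPM in mutant hearts 51 and 54, against 156 and 158.3 CPM in control hearts 47 and 50 (log2 fold change 0.12). Mutant 54 and control 50 were nearly level for Sec61a1. Sec61b, Ssr1 and Sec11c encode a small subunit of the channel, a subunit of the translocon-associated complex and a catalytic subunit of the signal peptidase. These 3 genes lay below both controls in both mutants, as did 36.3% of all genes tested. Their log2 fold changes were -0.26, -0.27 and -0.31, with limma adjusted p between 0.101 and 0.206.

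In total abundance the roles moved by different amounts, given here as sums of CPM and as a description. The sensors and their factors summed to 409.9 and 334 CPM in mutant hearts 51 and 54, against 207 and 216 CPM in control hearts 47 and 50. Degradation summed to 575 and 554 CPM in mutant hearts 51 and 54, against 476 and 485 CPM in control hearts 47 and 50, and the gap in Herpud1 was wider than the gap between these group means. The lectin chaperones and isomerases summed to 1809 and 1435 CPM in mutant hearts 51 and 54, against 2055 and 1916 CPM in control hearts 47 and 50. The lumen chaperones summed to 1445 and 1143 CPM in mutant hearts 51 and 54 and 1422 and 1473 CPM in control hearts 47 and 50, so both controls were near mutant 51 and above mutant 54.

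Levels between genes were compared per kilobase of exon. In the mutants Hspa5 stood first, at 126 ± 29.9 CPM per kilobase in mutants and 123 ± 0.460 in controls (SD, n = 2 each). Calr stood first in the controls, at 112 ± 25.8 CPM per kilobase in mutants and 149 ± 19.2 in controls. P4hb, Hsp90b1, Pdia3 and Canx completed the first 6 in both groups, and neighbours in that order lay within their spread of each other in the mutants. Herpud1 was seventh in the mutants, at 69.3 ± 1.20 CPM per kilobase, against 27.3 ± 0.0889 in controls. Atf6 stood at 18.9 ± 2.32 CPM per kilobase in mutants and 7.84 ± 0.609 in controls, rank 14 and rank 27 of 33. Ern1 remained among the lowest, at 3.62 ± 0.603 CPM per kilobase in mutants and 2.08 ± 0.271 in controls.

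The mutants differed from each other across these genes. In 27 of 33 members mutant 51 was above mutant 54, while 47.5% of all genes were. Hspa5, Dnajb9, Sel1l and Derl1 were above both controls in mutant 51 and below both in mutant 54, a pattern that 3.93% of all genes showed. Derl2 alone showed the opposite. The members' median deviation from the control mean was -0.07 in mutant 51 and -0.21 in mutant 54, on the log2 scale. Without mutant 51 the log2 fold changes of Calr, Hsp90b1 and Pdia4 were -0.66, -0.49 and -0.59. Without mutant 54 those of Hyou1 and Xbp1 were 0.42 and 0.76. None of these genes passed with all libraries. In each such fit only the other mutant stood for its group, so no spread between mutants was measured. Without control 47 only Herpud1 passed, and without control 50 Herpud1 and Atf6.

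Markers of other cell types differed between these libraries too. The summed level of 8 fibroblast markers was 4643 and 5501 CPM in mutant hearts 51 and 54 and 8803 and 7139 CPM in control hearts 47 and 50. All 8 were lower in both mutants, and 3 of these passed the test. Across all genes tested 17.8% rose and 14.2% fell, while 36.0% had both mutants above both controls and 36.3% below. The summed level of 7 macrophage markers was 145 and 108 CPM in mutant hearts 51 and 54, against 96.1 and 77.6 CPM in control hearts 47 and 50, and 4 of 7 rose. Smooth muscle markers, 3 of 6 of which fell, summed to 471 and 648 CPM in mutant hearts 51 and 54, against 1326 and 1156 CPM in control hearts 47 and 50. Acta2 made up most of that sum in the controls, and Cnn1 of the same list lay higher in both mutants without passing, at 105.9 and 89.4 CPM in mutant hearts 51 and 54, against 83.2 and 63.9 CPM in control hearts 47 and 50. By these sums fibroblast and smooth muscle markers stood lower and macrophage markers higher in mutant hearts. The macrophage markers did not move as 1 set: 5 of 7 had both mutants above both controls. Cx3cr1 had both mutants below both controls without passing (log2 fold change -0.45), and the groups overlapped for Csf1r (log2 fold change -0.03). Airway epithelial markers were at 46.9 and 29.3 CPM in sum in mutants 51 and 54 and 137 and 117 CPM in control hearts 47 and 50, with 4 of the 5 present lower. Scgb3a2, an airway secretory marker, was at 0 reads in both mutants, which allows up to 0.326 and 0.356 CPM, and at 95.3 and 79.9 CPM in control hearts 47 and 50. Erythroid markers summed to 676 and 5144 CPM in mutant hearts 51 and 54 and 5717 and 13165 CPM in control hearts 47 and 50. The erythroid sum thus varied between embryos of 1 group as well as between groups. Endothelial markers were at 935 and 978 CPM in mutant hearts 51 and 54 and 959 and 1188 CPM in control hearts 47 and 50, none past the threshold. Of markers of B and plasma cells, whose ER is rich in these chaperones, 1 of 6 was present (Sdc1), and it fell. None of the 5 liver markers was. The part of these shifts in the values of the ER genes was not tested.

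**Figure D4:**
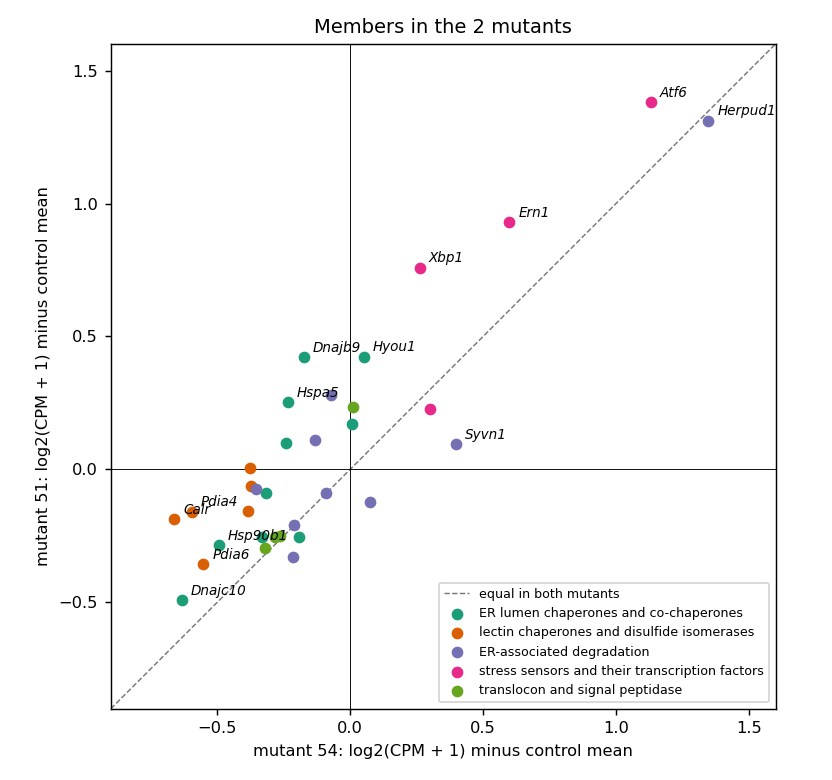
Deviation of each member from the control mean on the log2(CPM + 1) scale, in mutant 54 (x axis) and mutant 51 (y axis), coloured by role, with the line of equal values dashed. Of 33 points 27 lie above the line, and Herpud1 lies close to it.

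Other genes of the same pathways were read from lists that hold no member. Of 50 further genes of ER folding 3 rose and 14 fell, against 17.8% and 14.2% of all genes tested. The median log2 fold change of the list was -0.20. Dnajc1, which encodes an ER J-domain protein, rose by 0.65 (SE 0.13), and the collagen lysyl hydroxylase genes Plod3 and Plod2 rose by 0.54 and 0.50. Crtap, whose product belongs to the collagen prolyl 3-hydroxylation complex, fell by 0.84 (SE 0.13). Sdf2, the relative of Sdf2l1, fell by 0.69, and Calu, which encodes the calcium-binding protein calumenin, fell by 0.65.

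Of 44 further genes of translocation and N-glycan transfer 1 rose and 11 fell, with a median of -0.17. Across all genes tested 17.8% rose and 14.2% fell. Srp68, of the signal recognition particle, rose by 0.51 (SE 0.12, limma adjusted p = 0.0213). Dad1 and Tusc3, which encode subunits of the oligosaccharyltransferase, fell by 1.28 (SE 0.14) and 0.80 (SE 0.13). Emc10, of the ER membrane complex, fell by 0.75 (SE 0.13). Dad1 stood at 26.8 and 33.5 CPM in mutant hearts 51 and 54, against 75.5 and 73.3 CPM in control hearts 47 and 50, a larger fold change than in any of the 4 translocon members.

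Of 44 further degradation genes 10 rose and 4 fell, against 17.8% and 14.2% of all genes tested, with a median of 0.12. Rhbdd1, which encodes a rhomboid protease of the ER membrane, rose by 1.81 (SE 0.20), with 60.8 and 41.8 CPM in mutant hearts 51 and 54 and 13.9 and 13.4 CPM in control hearts 47 and 50. Ubxn4, whose product recruits the ATPase VCP to the ER, rose by 0.62 (SE 0.11), and Dnajb2, which encodes a J-domain protein that binds ubiquitinated clients, rose by 0.66 (SE 0.13). The 4 that fell were Svip by 1.52, Rnf5 by 1.11, Vcp by 0.62 and Ubxn6 by 0.51. Svip encodes an inhibitor of ER-associated degradation, Rnf5 a membrane ubiquitin ligase, and Ubxn6 a cofactor of VCP.

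Of 29 regulators of ER stress and traffic 5 rose and 6 fell, with a median of 0.08. The shares of all genes tested were 17.8% and 14.2%. Hax1, which encodes an anti-apoptotic protein, rose by 1.48 (SE 0.14), and Traf2, whose product binds activated IRE1, rose by 1.07 (SE 0.16). Sec16a, of ER exit sites, rose by 0.59, Ptpn1, which encodes an ER-anchored phosphatase, by 0.49, and Creb3, which encodes an ER-bound transcription factor, by 0.37. Kdelr1 and Kdelr2, the receptors that return chaperones such as BiP from the Golgi, fell by 0.58 and 0.41. Bfar, which encodes an ER-anchored ubiquitin ligase, fell by 0.54. Ptpn1 and Creb3 did not pass with upper-quartile or quantile scaling, where 3 regulators were higher and 7 or 6 lower. With DESeq2 neither passed, and the calls of Bfar (adjusted p = 0.0591) and Kdelr2 (adjusted p = 0.0982) were lost as well, which left 3 higher and 1 lower.

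In the list of PERK and the targets of ATF4 and CHOP, 19 of 25 genes rose and none fell, with a median of 2.17. Among all genes tested 17.8% rose and 14.2% fell. Asns, the gene of asparagine synthetase, stood at 324 and 340.0 CPM in mutant hearts 51 and 54, against 11.6 and 14.7 CPM in control hearts 47 and 50, a rise of 4.57 (SE 0.14). Atf3, the gene of a stress-induced transcription factor, stood at 246 and 316 CPM in mutant hearts 51 and 54, against 10.00 and 8.44 CPM in control hearts 47 and 50, a rise of 4.78 (SE 0.16). Chac1, which encodes a glutathione-degrading enzyme, rose to 136 and 114 CPM in mutant hearts 51 and 54, against 0.345 and 0.277 CPM in control hearts 47 and 50, where it had 3 reads or fewer, so that its fitted log2 fold change of 6.58 depends on the 1 CPM added to each value. Most of these genes also answer to other kinases of eIF2alpha, which these values do not tell apart from PERK. Of the 28 genes named from these 5 lists, 5 passed without control 47 (Rhbdd1, Hax1, Chac1, Asns and Atf3) and 7 without control 50 (also Dad1 and Rnf5).

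**Figure D5:**
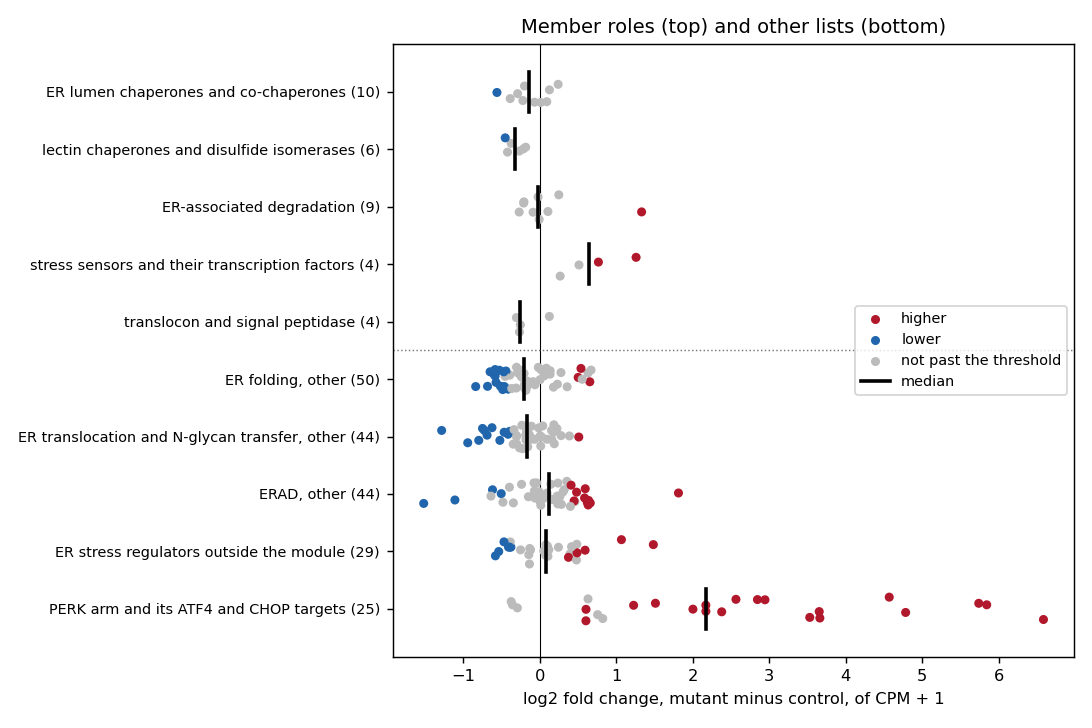
Log2 fold change of every gene tested, as log2(CPM + 1) in mutants minus that in controls, for the member roles at the top and the other lists at the bottom, with the number of genes in brackets and the median as a black bar. The median of the PERK, ATF4 and CHOP list is 2.17 and that of the sensors 0.64, and the other medians lie between -0.32 and 0.12.

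The promoter words can be set beside these values. Of the 11 members with an ERSE or ERSE-II, 1 rose, 1 fell, 8 did not pass and Derl3 was not analysed, with a median log2 fold change of -0.14. Of the 17 without either, 1 rose, 1 fell and 15 did not pass, with a median of -0.21. The ATF4 element lay in 1 member, Herpud1, and in 583 of all 27025 genes with a window, or 2.16%. In the list of PERK and the ATF4 and CHOP targets it lay in 6 of the 22 genes with a window, namely Asns, Atf3, Chac1, Nupr1, Slc7a11 and Vldlr, and 5 of these 6 rose. Of the 16 genes of that list without it 12 rose. Across all genes tested 17.8% rose and 14.2% fell, and the list was chosen with earlier results of these data known. Vldlr did not pass, with a log2 fold change of 0.75 (limma adjusted p = 0.0515). The window of Herpud1 was the only 1 of all windows searched to hold both an ATF4 element, from -112 to -105, and an ERSE or ERSE-II, here from -52 to -42. The stretches around the ATF4 element, in capitals, are shown for comparison with that of Herpud1, along each gene's own strand.
Atf3 (chr1:191183421-191183458, minus strand): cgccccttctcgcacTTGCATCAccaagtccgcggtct
Chac1 (chr2:119351034-119351071, plus strand): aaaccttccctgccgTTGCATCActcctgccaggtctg
Asns (chr6:7693210-7693247, minus strand): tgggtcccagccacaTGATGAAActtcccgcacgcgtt
The word reads TTGCATCA, the opposite strand of TGATGCAA, in Herpud1, Atf3 and Chac1, and TGATGAAA in Asns. It is a shared run of letters, and no binding was measured.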

How the data were processed

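RNA of 4 embryonic hearts was extracted with Trizol and sequenced from poly(A)-selected libraries, per the labels' protocols. The build GRCm38 and the tools STAR, fastp 0.20.0, DESeq and edgeR 3.10 are in the submitters' processing notes. Which tool counted the reads, on which strand and with what annotation is not given in the sources used here. A deposited table of 14936 genes has CPM columns that, per the file headers, are a read signal scaled by the authors, and with them the authors' log2 fold change, mean log2 CPM, F score, p-value and FDR. These fold changes run at 0.500 times the log2 ratio of the CPM values (median of 4393 genes), so fold changes were computed here.

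Each CPM value was a whole multiple of 1 read within a tolerance of 0.001, for 100% of values, so reads were recovered. They total 8593443 and 8444488 in mutants 51 and 54 and 8998872 and 7457103 in controls 47 and 50. The upper limits given for 0 reads are 3 reads and cover counting error only. The test had been designed for counts or for normalized values, and the second form was used. Log2(CPM + 1) of the 14869 genes that reached 1 CPM in 2 libraries was compared with limma 3.58.1 (R 4.3.3, trend, Benjamini-Hochberg over all genes, threshold 0.05), with genotype as the only term. The scale understates changes of low genes. The script was tested on simulated data with 200 changed genes. On the recovered reads edgeR 4.0.16 called 4653 genes, 2631 higher and 2022 lower, and DESeq2 1.42.0 was a further alternative. Replicate libraries differed beyond counting noise (chi-square over its degrees of freedom 24.8 in mutants and 8.47 in controls).

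The members and lists were chosen with earlier results of these data known. All members are named, and of each other list the 3 genes with the smallest p in each direction among those past the threshold and with groups that do not overlap, or all where 5 or fewer passed. Exon lengths and positions are those of GENCODE M21 on GRCm38. The alternatives were other pseudocounts (0.5 and 2 CPM), filters, scalings and count models, and leaving out each library. Exons of Hsp90b1, Manf, Pdia3, Pdia6, Sec61a1, Syvn1, Derl2, Dnajb9 and Pdia4 overlap another annotated gene, whose reads may not be told apart.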

Additional observations from a re-analysis of the deposited data

How the results depend on the processing

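No paired analysis was possible because the groups share no replicate numbers. The 3 higher members were called with every scaling and count model tried, and the lower members numbered 6 with upper-quartile scaling, which adds Hsp90b1, Dnajc3, Os9 and Ssr1, and 5 with quantile normalization, which adds the last 3 of these. Leaving out single libraries, the members numbered 1 to 5 higher and 0 to 5 lower, their median lay between -0.21 and -0.073, and the counts over all genes lay between 534 and 2905 higher and 37 and 2750 lower. A left-out library, control or mutant, leaves 1 library in its group, which is assumed to vary like the others. Calls made without a mutant therefore hold no measured spread between mutants. The 3 other ER lists together had 14 genes higher and 29 lower, 11 and 38 with quantile normalization, 19 lower with DESeq2, and 1 to 17 higher and 0 to 30 lower with a library left out. The ER stress regulators had 3 higher with upper-quartile scaling, with quantile normalization and with DESeq2, 1 lower with DESeq2, and 1 to 6 higher and 0 to 6 lower with a library left out. The PERK, ATF4 and CHOP list had 1 lower with upper-quartile and with quantile scaling, and 13 to 21 higher with a library left out. Of the 28 genes named in those lists, 5 passed without control 47 and 7 without control 50. Signs changed in 9 members, none past the threshold where the sign differed: Hspa5 was at -0.084 with upper-quartile scaling, Derl1 at -0.00898 with quantile normalization, and Sel1l at 0.00297 with TMM scaling and 0.00942 with edgeR and TMM. With a library left out, the range was -0.23 to 0.25 for Hspa5, -0.17 to 0.42 for Dnajb9, -0.24 to 0.10 for Dnajb11, -0.52 to 0.072 for Sdf2l1, -0.024 to 0.20 for Creld2, -0.38 to 0.00423 for Pdia3, -0.13 to 0.11 for Sel1l, -0.072 to 0.28 for Derl1 and -0.12 to 0.075 for Derl2. The cause of these shifts was not tested. Of 1022 single-gene values under 14 alternatives 907 kept direction and call.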

Other observations

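Of the 14 further ER folding genes that fell, 5 not named above are given here, chosen after their values were seen. Ppib, which encodes the prolyl isomerase cyclophilin B, stood at 141 and 136 CPM in mutant hearts 51 and 54, against 186 and 184 CPM in control hearts 47 and 50, and fell by 0.42 (SE 0.11, limma adjusted p = 0.0293). Fkbp7, Fkbp9 and Fkbp14, which encode further ER prolyl isomerases, fell by 0.60, 0.44 and 0.59, and Rcn3, which encodes a calcium-binding protein of the ER lumen, fell by 0.49. Each of these 5 had both mutants below both controls, and none passed without control 47 or without control 50. With DESeq2 Ppib, Fkbp7 and Fkbp14 did not pass either. Serpinh1, from the same list, which encodes the collagen chaperone HSP47, stood at 1092 and 959 CPM in mutant hearts 51 and 54, against 825 and 776 CPM in control hearts 47 and 50, with a log2 fold change of 0.36 that did not pass (adjusted p = 0.165). All 8 fibroblast markers were lower in both mutants, with summed levels given above. Of these 3 passed the test, and Col1a1, Col1a2 and Col3a1 did not. The part of the fibroblast markers in these values was not tested.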
